A study of Rattus norvegicus with 18 samples.

Results

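The genes described here are the 4 Id factors (Id1, Id2, Id3 and Id4) and members of the BMP signalling pathway (Bmp2, Bmp4, Bmp10, Bmpr1a, Smad6 and Bambi), followed in cultured neonatal rat cardiomyocytes. The members are all probes whose platform gene symbol equals one of these 10 names. Of the 10 genes, 8 had a probe, with 10 probes on each of the 2 array designs used, and no probe was listed for Bmp10 or Smad6. On the larger design these were 10 of 33849 probes, of which 9 passed the filter on low values that kept 23694 probes. The genes were proposed with earlier results of these data in view, so their changes are given as a description and are not independent evidence.

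Cardiomyocytes, which do the beating work of the heart, came from rat ventricles at day 1 (n = 24) and were purified on Percoll gradients. All dishes first spent 24 h in cardiac medium, and those of the 6 time zero arrays were then extracted. Dishes of the other 12 arrays were brought to 50% hESC medium, either unconditioned or conditioned by stem cells. They were extracted after a further 24 h or 48 h, with FBS at 5% and HS at 10% in both media. The labels do not identify dishes, so it is not known whether arrays of the 2 designs used below carried RNA of the same dishes, and the smaller design may not be an independent set. The title of the series asks whether factors secreted by stem cells make cardiomyocytes proliferate. Each of the 5 groups was hybridised to 1-colour CodeLink arrays: the larger design carried 4 time zero arrays (replicates 3 to 6) and 2 of each medium group (replicates 2 and 3), and the smaller design carried 2 time zero arrays (replicates 1 and 2) and 1 of each medium group (replicate 1). Time zero dishes received no hESC medium, so a difference from time zero combines the added medium with a longer time in culture, and these cannot be told apart.

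Id proteins are helix-loop-helix factors that lack a DNA-binding region. They pair with E proteins and keep them and their partners off DNA, and they are known for holding cells in a dividing, less differentiated state. BMP ligands bind a complex of type I receptors such as Bmpr1a and type II receptors, which activates the receptor-regulated Smads. Id1, Id2 and Id3 are textbook targets of these Smads, and the inhibitory Smads Smad6 and Smad7 and the pseudoreceptor Bambi restrain the pathway. In the heart, BMP signals act in forming the muscle and the valves, and Bmp10 is known for its part in the growth of the embryonic ventricle.

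A stretch near the transcription start is shown for the 4 Id genes, since these were the members with the largest differences and Smads act on such regions. Each line gives 250 bases before the start site of the RefSeq promoter entry, 5′ to 3′ on the strand of the gene, in the rat build GRCr8. For Id1 and Id3 the annotated gene starts inside this window, at 161671525 and 153656253, so the last bases lie within the gene. Capitals mark the Smad-binding letters GTCT, or AGAC where they lie on the opposite strand, and GGCGCC.
Id1, chr3:161671314-161671563, plus strand: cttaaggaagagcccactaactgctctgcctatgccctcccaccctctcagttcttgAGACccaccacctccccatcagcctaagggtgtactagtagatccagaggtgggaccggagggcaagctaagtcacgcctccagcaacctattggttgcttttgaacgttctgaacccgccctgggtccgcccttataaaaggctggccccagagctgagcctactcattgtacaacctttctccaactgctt
Id2, chr6:47470996-47471245, minus strand: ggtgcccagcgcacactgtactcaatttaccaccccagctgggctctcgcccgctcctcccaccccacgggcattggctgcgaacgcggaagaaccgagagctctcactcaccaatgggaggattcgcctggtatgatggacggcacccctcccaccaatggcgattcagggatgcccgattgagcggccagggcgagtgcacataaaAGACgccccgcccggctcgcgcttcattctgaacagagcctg
Id3, chr5:153656041-153656290, plus strand: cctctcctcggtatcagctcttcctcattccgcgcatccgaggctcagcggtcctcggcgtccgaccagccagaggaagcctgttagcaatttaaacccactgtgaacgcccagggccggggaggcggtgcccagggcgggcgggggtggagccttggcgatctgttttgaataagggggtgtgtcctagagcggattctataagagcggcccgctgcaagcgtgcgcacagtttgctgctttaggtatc
Id4, chr17:16598294-16598543, minus strand: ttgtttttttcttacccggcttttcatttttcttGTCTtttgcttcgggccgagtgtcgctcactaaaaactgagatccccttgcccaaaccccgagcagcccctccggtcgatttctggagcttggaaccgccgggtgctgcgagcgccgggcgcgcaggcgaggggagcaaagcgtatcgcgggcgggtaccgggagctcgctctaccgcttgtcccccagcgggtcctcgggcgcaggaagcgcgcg

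The letters GTCT occurred once upstream of Id1, Id2 and Id4 and were not found in the window of Id3, and 84.0% of 33469 rat promoter windows of this length held them. GGCGCC, a motif of BMP-regulated Smads that reads the same on both strands, was in none of the 4 windows, against 8.69% of all windows. It occurred 1 time upstream of Bambi. The E-box CANNTG, the site of E proteins and their partners, occurred once in the windows of Id1 and Id2. In Id1 it lay at window bases 242 to 247, within the annotated gene. It was not found in the windows of Id3 and Id4, and 65.5% of all windows held it. These windows were rich in G and C, at 54.8% for Id1, 62.8% for Id2, 61.2% for Id3 and 62.8% for Id4, against a median of 51.2%. These matches describe letters in short windows and say nothing of binding.

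Intensities are on a linear scale after arrays were brought to a common median, which was 96.8 for the larger design. Array medians before scaling ran from 70.3 to 143.6 on the larger design and from 213.8 to 415.7 on the smaller one. On the larger design 3 arrays stood apart, namely unconditioned 48 h replicate 2 and replicates 4 and 5 of time zero, with a ratio of upper to lower quartile of 22.4 to 25.7 against 38.7 to 47.8 on the other 9. Some results are therefore also given without those 3 arrays. That setting leaves fewer time zero arrays and a lone array in unconditioned medium at 48 h. Log2 changes are set against the median over all probes of that comparison, which lay between 0.01 and 0.19 for the 4 comparisons with time zero, and adjusted p-values from limma test the change before that median was taken off. No label says that dishes came from separate cell preparations, so the p-values cover the variation among these arrays alone, which may be technical. The number of arrays, 2 in each medium group, limits the precision.

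Id1 and Id2 fell in all 4 medium groups against time zero, and Id3 fell in both unconditioned groups. Id1 was 4.16-fold to 7.56-fold lower than at time zero, and Id2 6.70-fold to 21.4-fold lower. The 21.4-fold value was that of unconditioned medium at 48 h, where the arrays lay far apart, at 56.4 and 10.8. Of the 8 members tested, 3 passed an adjusted p of 0.05 in unconditioned medium at 24 h and 3 at 48 h, and 2 passed in conditioned medium at each time, and each of these was lower than time zero. Over all probes, 0.076% were called lower in unconditioned medium at 24 h, 0.599% in conditioned medium at 24 h, 0.869% in unconditioned medium at 48 h and 1.07% in conditioned medium at 48 h. The 4 comparisons share the time zero arrays. The genes were chosen from these contrasts, so nothing is read from the shares. RNA was measured in bulk, where fewer cells of a type and less RNA per cell cannot be told apart.

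Id1 (probe 49025) had an intensity of 3176, 1620, 1517 and 2673 on the time zero arrays. After 24 h it was 249 and 416 in unconditioned and 582 and 582 in conditioned medium, and after 48 h 333 and 402 in unconditioned and 450 and 484 in conditioned medium. All 4 time zero arrays lay above all 8 medium arrays. The mean went from 2246 ± 810 (SD, n = 4) to 333 ± 118 (SD, n = 2) in unconditioned medium at 24 h, a log2 change of -2.92 ± 0.34 (SE, limma adjusted p = 7.4e-04). The change was -2.06 ± 0.34 in conditioned medium at 24 h (adjusted p = 0.0041), -2.56 ± 0.34 in unconditioned medium at 48 h (5.8e-04) and -2.36 ± 0.34 in conditioned medium at 48 h (6.4e-04). In conditioned medium at 24 h the call ended when replicate 2 or replicate 3 of that group was left out, with a largest adjusted p of 0.097. Time zero was also highest on the smaller design, with Id1 at 2239 and 3360 there and between 300 and 516 on the 4 medium arrays.

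Id2 (probe 300048) was 735, 642, 451 and 350 at time zero. It was 124 and 63.5 in unconditioned and 54.9 and 50.2 in conditioned medium at 24 h, and 56.4 and 10.8 in unconditioned and 71.5 and 36.6 in conditioned medium at 48 h. Time zero again lay above every medium array, and unconditioned 48 h replicate 3 was the lowest. Its log2 changes were -2.74 ± 0.54 in unconditioned medium at 24 h (adjusted p = 0.031), -3.50 ± 0.54 in conditioned medium at 24 h (0.0016), -4.42 ± 0.54 in unconditioned medium at 48 h (3.1e-04) and -3.52 ± 0.54 in conditioned medium at 48 h (8.2e-04). The call at 24 h in unconditioned medium ended in 7 of 23 other settings, among them leaving out time zero replicate 3 or 5 or unconditioned 24 h replicate 2 or 3. The largest change, in unconditioned medium at 48 h, was -2.86 with a pseudocount in place of a floor. It ran from -5.82 to -3.02 with single arrays left out. Without the 3 arrays that stood apart it was -5.55, where only the dim replicate 3 was left in that group. The Id2 probe of the smaller design lay below the filter, at 85.8 and 27.6 at time zero and at most 16.9 on the medium arrays.

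Id3 had 2 probes that gave the same order. Probe 221076 was 5148, 2449, 3008 and 5304 at time zero. It was 848 and 1091 in unconditioned and 1494 and 1487 in conditioned medium at 24 h, and 784 and 1653 in unconditioned and 1476 and 1783 in conditioned medium at 48 h. No medium array reached the lowest time zero array. In unconditioned medium the log2 change was -2.16 ± 0.37 after 24 h (adjusted p = 0.014) and -1.74 ± 0.37 after 48 h (0.015). In conditioned medium the values were -1.52 ± 0.37 at 24 h (adjusted p = 0.061) and -1.38 ± 0.37 at 48 h (0.061), which did not pass. They passed with quantile normalization (-1.69, adjusted p = 4.4e-05, and -1.56, 4.5e-05) and without the 3 arrays that stood apart (-1.79, 1.1e-04, and -1.65, 1.1e-04). The 24 h call in unconditioned medium ended without replicate 2 or replicate 3 of that group, with no filter (adjusted p = 0.10) and with no intensity trend (0.087). The 48 h call ended without unconditioned 48 h replicate 2 (-1.40, adjusted p = 0.22), with no filter (0.079), with no intensity trend (0.061) and with only the groups compared (0.12). The second probe, 156087, passed in conditioned medium at 48 h (-1.31 ± 0.33, adjusted p = 0.047) and in both unconditioned groups (-1.78, 0.027, and -1.30, 0.044), and was at -1.34 (0.068) in conditioned medium at 24 h. On the smaller design the matching probes were 4060 and 6519, and 5294 and 7823, at time zero, against 911 to 1548 and 1730 to 2786 on the medium arrays.

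Id4, the family member best known from neural precursors, had overlapping groups on the larger design. Probe 213034 was 120, 47.8, 112 and 151 at time zero. It was 40.8 and 21.5 in unconditioned and 37.9 and 27.6 in conditioned medium at 24 h, and 26.9 and 63.0 in unconditioned and 29.8 and 36.3 in conditioned medium at 48 h. The groups overlapped only through time zero replicate 4, which lay below unconditioned 48 h replicate 3. Its log2 changes ran from -1.93 ± 0.59 to -1.28 ± 0.59 with adjusted p from 0.13 to 0.36, so none passed. Without the 3 arrays that stood apart it passed at 24 h in unconditioned (-2.13, adjusted p = 0.036) and conditioned medium (-2.04, 0.019) and at 48 h in conditioned medium (-1.99, 0.014). Its second probe, 159109, did not pass the filter and was at most 20.7 on any array.

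**Figure D1:**
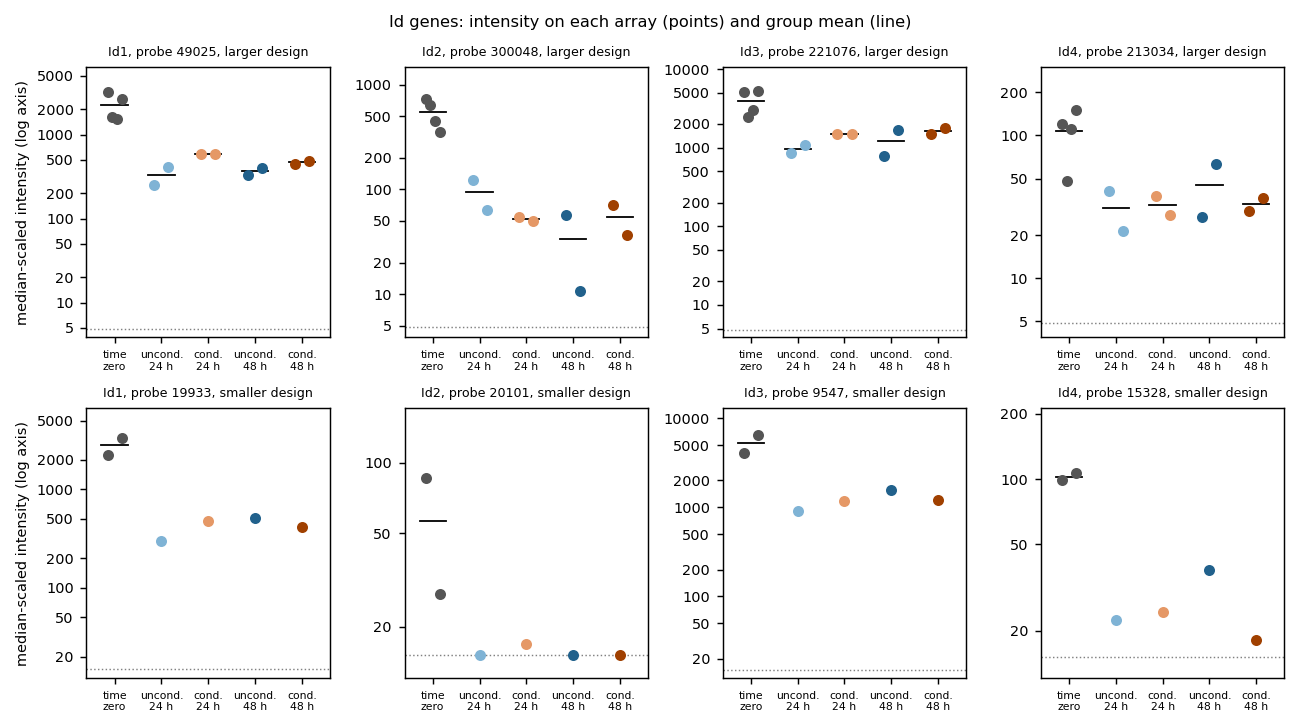
Intensity of the 4 Id genes on each array by group on a log axis, with the larger design above and the smaller below, group means as lines and the floor dotted. For Id1, Id2 and Id3 the 4 time zero arrays of the larger design lie above all 8 medium arrays, while for Id4 time zero replicate 4 (47.8) lies below unconditioned 48 h replicate 3 (63.0).

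Time zero lay above all 8 medium arrays for 4 of the 9 filtered member probes, namely Id1, Id2 and both of Id3. Of all 23694 probes, 0.57% had this pattern. On the smaller design both time zero arrays lay above all 4 medium arrays for 4 of the 7 member probes that passed its filter, namely Id1, both of Id3 and Bambi, where 14.8% of 6934 filtered probes did. The Id2 probe and both Id4 probes of that design did not pass the filter. The ratio of the time zero mean to the mean over the medium arrays was 5.14 for Id1, 9.31 for Id2 and 3.03 for Id4 on the larger design, and 6.55 for Id1 on the smaller one. For Id3 it was 3.0 with probe 221076 and 4.38 with its counterpart on the smaller design, and 2.53 with probe 156087 and 3.10 with its counterpart. Only 6 probes of the larger design (0.0253%) were called lower in all 4 medium groups. They were Id1, Id2, the IGF-binding protein Igfbp5, the neurotrophin receptor Ntrk2 and 2 probes with no gene.

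Markers of the cell types a ventricle preparation can hold were read on the same arrays. The summed intensity of 8 cardiomyocyte markers was 116708 to 247075 at time zero and 142889 to 249472 in the media, and none of the 8 was called in any comparison. The sum over the fibroblast list was 3710 to 6847 at time zero and 7508 to 16524 in the media. Of its 9 genes with a probe, 5 passed the filter. Against time zero, those called higher at 24 h were 0 (unconditioned) and 1 (conditioned), and at 48 h 3 and 2. On the unconditioned 48 h arrays Lum and Pdgfra lay at the floor. Between the media over both times the median change of the 5 was -0.43, with 1 called higher. For 8 endothelial markers the sums were 1146 to 1711 and 1931 to 4279. Of the 8, 7 rose in conditioned medium at 48 h (median log2 change 1.54), while Kdr, the main VEGF receptor of endothelium, fell (-1.66, adjusted p = 0.016). In unconditioned medium at 48 h 6 rose and 1 fell (median 1.55). Over all probes 5.39% were called higher in conditioned and 2.03% in unconditioned medium at 48 h. The smooth muscle and pericyte list ran from 21660 to 38003 and from 37353 to 60874. Leukocyte markers ran from 1154 to 1648 and from 998 to 2168, with Lyz2 at the floor on every array. For the 6 filtered leukocyte markers the median change at 24 h was -0.45 (unconditioned) and -0.62 (conditioned), and at 48 h 0.0032 and -0.67. Of these, Cd74, a chaperone of antigen presentation, fell in conditioned medium at both times and Cd14, a monocyte receptor, rose in unconditioned medium at 48 h. The only filtered erythroid marker, the anion exchanger Slc4a1, was at -0.51 to -0.91 and did not pass. The part of these shifts in the Id values was not tested.

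Over the 12 arrays, the genes whose log2 intensities followed Id1 most closely were Ntrk2 (Pearson r = 0.96), Id3 (0.95) and the chemokine receptor Cxcr4 (0.91). Id3 was followed most closely by Id1 (0.95), by the helix-loop-helix factor Atoh8 (0.91) and by Ntrk2 (0.91). Id2 had other neighbours, namely Pik3ip1 (0.93), Igfbp5 (0.92) and Arhgap25 (0.87). These values describe 12 arrays in 5 groups, in which the step from time zero to the media is shared by many genes. Without the 3 arrays that stood apart, r between Id1 and Id3 was 0.97 over 9 arrays.

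Among the ligands, Bmp2 (probe 191023) was highest on the 24 h arrays of both media. It was 1384, 532, 1390 and 2189 at time zero. The 24 h arrays gave 3056 and 3071 in unconditioned and 3114 and 3021 in conditioned medium, and the 48 h arrays 1126 and 1877 in unconditioned and 1194 and 1145 in conditioned medium. All 4 arrays at 24 h lay above the 8 other arrays, a pattern noticed after the values were seen and shared by 0.207% of all probes. Against time zero, the log2 change at 24 h was 1.14 ± 0.42 in both media (adjusted p = 0.21 unconditioned, 0.11 conditioned), and neither passed. At 48 h the values were 0.24 ± 0.42 (adjusted p = 0.90) and -0.23 ± 0.42 (0.96). From 24 h to 48 h in conditioned medium the change was -1.38 ± 0.48 (adjusted p = 1.00), a comparison in which 0.00422% of all probes were called and none of the members was, with 1 of 8 at an unadjusted p under 0.05.

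The Bmp2 values were sensitive to single arrays. Without time zero replicate 6, the highest of its group, the 24 h changes passed in both media (1.33, adjusted p = 0.049, and 1.34, 0.023). Without the 3 arrays that stood apart, the change in conditioned medium at 24 h was 0.84 (adjusted p = 0.028) and the 24 h to 48 h change in conditioned medium passed (0.025). On the smaller design the Bmp2 probe was near 0 on 3 of 6 arrays, namely time zero replicate 2, unconditioned 24 h and unconditioned 48 h. It was 794 on the other time zero array, 1372 in conditioned medium at 24 h and 361 at 48 h. On that design only the change from 24 h to 48 h in conditioned medium used no array near 0. That change was -1.93, with 1 array at each time.

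Bmp4 (probe 271094), a second ligand with roles in early heart formation, was 74.0, 28.3, 64.5 and 115 at time zero. It was 127 and 111 in unconditioned and 93.8 and 135 in conditioned medium at 24 h, and 103 and 139 in unconditioned and 151 and 201 in conditioned medium at 48 h. The conditioned 48 h arrays were the highest of all 12, and time zero replicate 4 was the lowest. The mean was 70.5 ± 35.7 (SD, n = 4) at time zero and 176 ± 34.9 (SD, n = 2) in conditioned medium at 48 h, a log2 change of 1.31 ± 0.46 (adjusted p = 0.068) that did not pass. It passed without time zero replicate 6 (1.52, adjusted p = 0.019), and was 0.95 without the 3 arrays that stood apart. With both designs fitted together it was 1.12 (adjusted p = 0.018). That fit tested 4613 probes and the designs may share dishes, so its adjusted p cannot be set beside the others. The other 3 changes from time zero lay between 0.66 and 0.92 with adjusted p of at least 0.41. Bmp4 on the smaller design was 109 and 143 at time zero. Its conditioned arrays there gave 118 (24 h) and 217 (48 h), against 202 (24 h) and 213 (48 h) for the unconditioned arrays. The 48 h values of both media were thus close, and that design did not set the conditioned 48 h array apart. The genes most like Bmp4 over the 12 arrays were Rcn2 (r = 0.97), Cnih1 (0.96) and Selenoi (0.95), values that were 0.93, 0.88 and 0.82 without the 3 arrays.

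**Figure D2:**
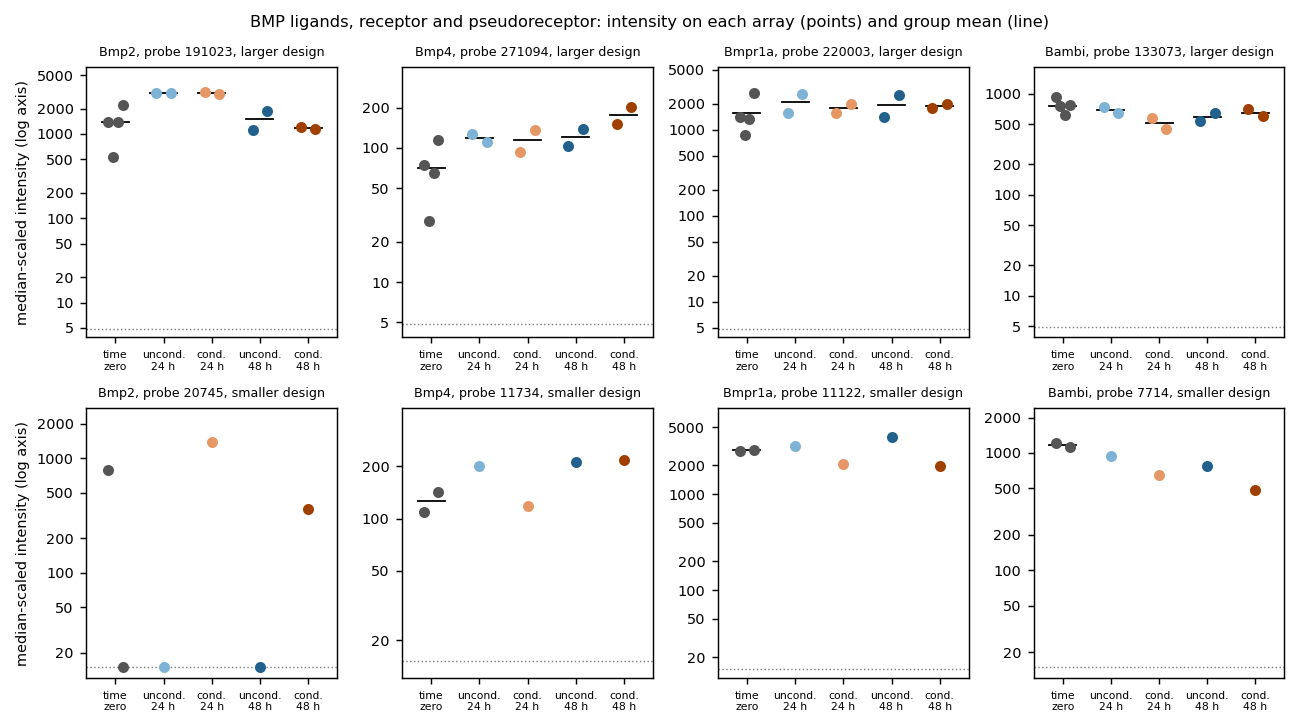
Intensity of Bmp2, Bmp4, Bmpr1a and Bambi on each array by group on a log axis, with the larger design above and the smaller below, group means as lines and the floor dotted. Bmp2 lies between 3021 and 3114 on the 4 arrays at 24 h of the larger design, above the 8 other arrays of that design, where the Bmpr1a and Bambi groups overlap.

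Bmpr1a, the type I receptor for Bmp2 and Bmp4, and Bambi, the decoy that lacks a kinase domain, did not pass in any comparison. Bmpr1a (probe 220003) was 1427, 864, 1352 and 2683 at time zero and between 1409 and 2620 on the 8 medium arrays, and every group overlapped its neighbours. Its changes from time zero ran from 0.10 ± 0.40 to 0.36 ± 0.40, with adjusted p of at least 0.67. The sign in conditioned medium at 24 h turned with quantile normalization (-0.034) and without the 3 arrays (-0.13). Bmpr1a on the smaller design was 2840 and 2868 at time zero and 1981 to 3956 on the medium arrays. Bambi (probe 133073) was 924, 755, 620 and 771 at time zero. It was 743 and 654 in unconditioned and 580 and 455 in conditioned medium at 24 h, and 544 and 644 in unconditioned and 706 and 602 in conditioned medium at 48 h. Its lowest value from time zero was in conditioned medium at 24 h, at -0.75 ± 0.29 (adjusted p = 0.37), which passed with quantile normalization (-0.84, 0.032) and without the 3 arrays (-0.70, 0.042). Bambi on the smaller design was 1208 and 1117 at time zero and 485 to 934 on the medium arrays.

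**Figure D3:**
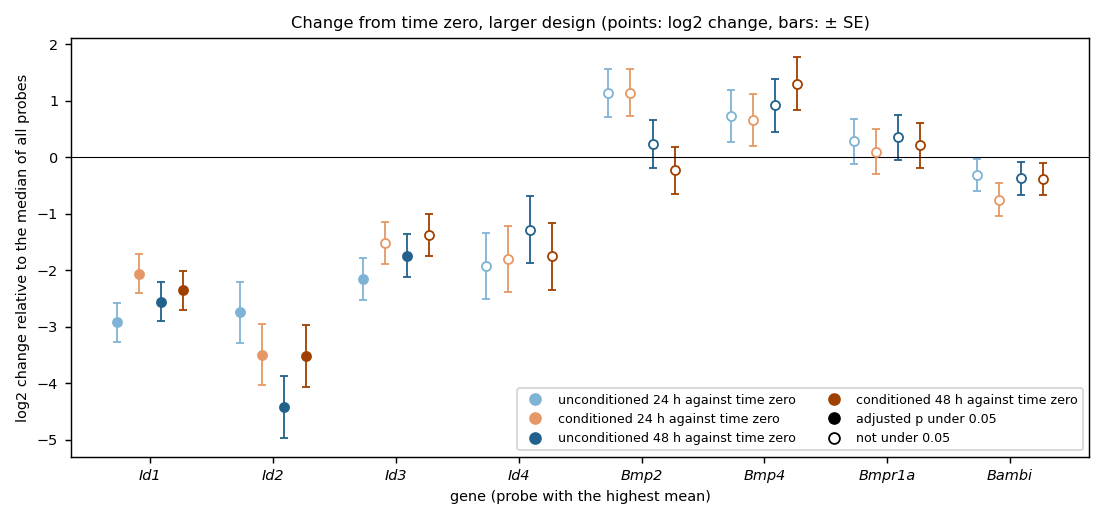
Log2 change from time zero in each of the 4 medium groups for the 8 members, with bars of 1 SE and filled points where the adjusted p was under 0.05. Filled points are found for Id1 and Id2 in all 4 groups and for Id3 in both unconditioned groups, and all are below 0.

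No member passed between the media. The comparison of the 4 conditioned with the 4 unconditioned arrays called 0 of 8 members, where 0.92% of all 23694 probes were called, and 1 member, Id1, had an unadjusted p under 0.05. At 24 h alone and at 48 h alone the counts were also 0 of 8, with 1 and 0 at an unadjusted p under 0.05 and 0.245% and 0.148% of all probes called. Id1 had its 4 conditioned arrays (450 to 582) above its 4 unconditioned ones (249 to 416), a pattern of 8.63% of all probes. The log2 change was 0.52 ± 0.28 (adjusted p = 0.44), with a 95% interval from -0.07 to 1.11. It was 0.84 ± 0.40 at 24 h (adjusted p = 0.93) and 0.18 ± 0.40 at 48 h (0.87). Id1 on the smaller design was 481 in conditioned and 300 in unconditioned medium at 24 h, and 413 and 516 at 48 h.

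Id3 differed between the media by 0.49 ± 0.30 (adjusted p = 0.53, 95% interval -0.15 to 1.13), with 0.62 ± 0.43 at 24 h (adjusted p = 1.00) and 0.33 ± 0.43 at 48 h (0.80). Its conditioned arrays, from 1476 to 1783, overlapped the unconditioned ones, from 784 to 1653. Id2 differed by 0.06 ± 0.44 (95% interval -0.87 to 1.00) and Id4 by -0.18 ± 0.48 (-1.19 to 0.83), and both signs turned in other settings, to -0.13 for Id2 with a higher floor and to 0.079 for Id4 with 1 array left out. Bmp2 differed by -0.24 ± 0.34, Bmp4 by 0.15 ± 0.38, Bmpr1a by -0.17 ± 0.33 and Bambi by -0.24 ± 0.23. The intervals were -0.96 to 0.48 for Bmp2, -0.65 to 0.94 for Bmp4, -0.86 to 0.51 for Bmpr1a and -0.73 to 0.26 for Bambi. On the smaller design Bmpr1a was 2042 in conditioned and 3152 in unconditioned medium at 24 h, and 1981 and 3956 at 48 h. Bambi there was 653 and 934 at 24 h, and 485 and 774 at 48 h. Both genes thus had the conditioned arrays below the unconditioned ones on that design, with 1 array in each medium group. The difference between the media effects at 48 h and 24 h passed for 0 of 8 members, with 0 at an unadjusted p under 0.05, and for 0% of all probes.

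**Figure D4:**
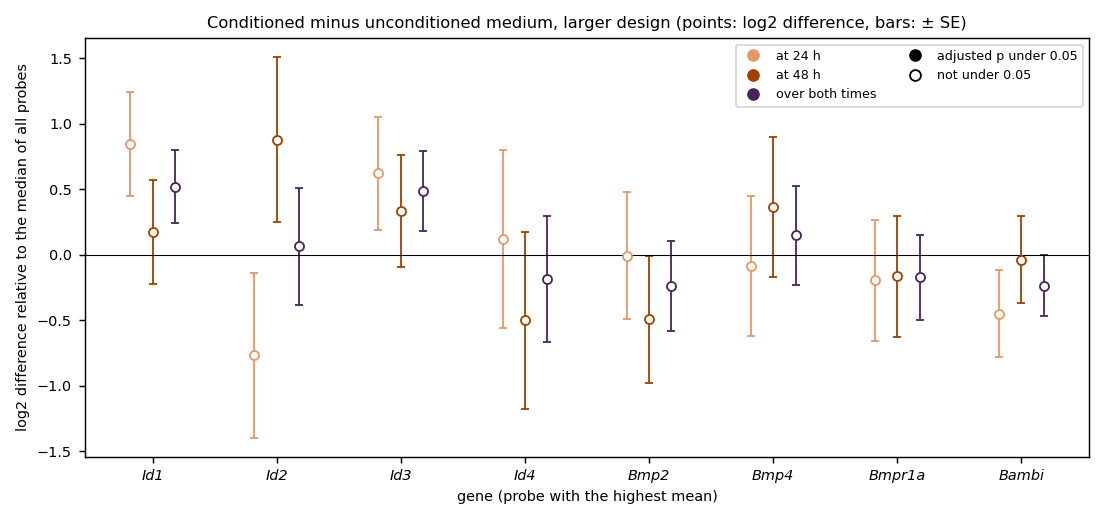
Log2 change between conditioned and unconditioned medium for the 8 members at 24 h, at 48 h and over both times, with bars of 1 SE. No member passes an adjusted p of 0.05, and Id1 is at 0.52 and Id3 (probe 221076) at 0.49 over both times. The other Id3 probe, 156087, is not drawn and is at 0.20.

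The order of the 5 groups differed between members. For Id1 it ran from time zero through conditioned 24 h and conditioned 48 h to unconditioned 48 h and unconditioned 24 h, and only the last pair overlapped. For Id2 and Id3 only time zero was apart, and the 4 medium groups overlapped from neighbour to neighbour. For Bmp2 the groups at 24 h overlapped each other and were apart from the other 3 groups, which overlapped. For Bmp4 the conditioned 48 h arrays were apart from the next group, and for Id4, Bmpr1a and Bambi all neighbours overlapped. The groups hold 2 arrays each apart from time zero, so these overlaps rest on few values.

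The rest of the pathway was read through lists of its other ligands, receptors, Smads, antagonists, target factors and the E proteins, of which 51 genes passed the filter. In conditioned medium at 48 h, 8 of the 51 rose and 2 fell, where 5.39% of all probes were called higher and 1.07% lower. In unconditioned medium at 48 h the counts were 5 and 1 (2.03% and 0.869%), in conditioned medium at 24 h 5 and 1 (2.57% and 0.599%), and in unconditioned medium at 24 h 1 and 1 (0.739% and 0.076%). The median change over the 51 genes was between 0.02 and 0.16, against 0 over all probes. Between the media over both times 0 of the 51 passed, with 5 at an unadjusted p under 0.05, and from 24 h to 48 h 0 passed in either medium, with 0 and 2 at an unadjusted p under 0.05. Between the media 1 rose and 2 fell with quantile normalization, where Htra1 rose (0.63, adjusted p = 0.045), and the counts were also 1 and 2 without the 3 arrays that stood apart. From 24 h to 48 h in conditioned medium 6 rose and 2 fell with array weights, and 4 rose and 3 fell with only the groups compared. The counts depended on single arrays. Without replicate 2 or without replicate 3 of the conditioned 48 h group, 2 rose and 0 fell in that group, and without unconditioned 48 h replicate 3 none passed in unconditioned medium at 48 h. Leaving out the 3 arrays that stood apart gave 10 higher and 9 lower in conditioned medium at 48 h.

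Of 10 filtered secreted antagonists and modulators, 4 rose in conditioned and 3 in unconditioned medium at 48 h. Htra1, a secreted protease that binds and inhibits TGF-beta family ligands, was 1492, 615, 935 and 1503 at time zero and 9382 and 12063 in conditioned medium at 48 h. It rose in all 4 groups, from 1.55 ± 0.39 in unconditioned medium at 24 h (adjusted p = 0.043) to 3.16 ± 0.39 in conditioned medium at 48 h (4.7e-05). Fst, follistatin, which binds activins and some BMPs, was 572, 320, 440 and 538 at time zero. It rose in conditioned medium at 24 h (1487 and 1514, 1.54 ± 0.34, adjusted p = 0.0069) and 48 h (1543 and 1659, 1.65 ± 0.34, 0.0027). With quantile normalization it also rose in unconditioned medium at 48 h (1.17, adjusted p = 0.0024), where it was 1.31 without the 3 arrays that stood apart. Its relative Fstl3 rose in conditioned medium at 24 h and in both media at 48 h, by 0.96 to 1.53, and Fstl1 rose in both media at 48 h, by 1.55 to 1.69. With quantile normalization Fstl3 also passed in unconditioned medium at 24 h (0.89, adjusted p = 0.015). Fstl1 then passed at 24 h in unconditioned (0.90, 0.0013) and conditioned medium (0.65, 0.0031). Without the 3 arrays that stood apart, the change in unconditioned medium at 24 h was 0.90 for Fstl3 and 0.95 for Fstl1. In conditioned medium at 24 h Fstl1 was then at 0.60. The fibroblast and endothelial sums given above were also higher on every medium array than at time zero, and their part in these increases was not tested. The median of the list was 0.90 in conditioned and 1.03 in unconditioned medium at 48 h, where the quartiles over all probes were -0.42 and 0.40, and -0.35 and 0.37.

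Of the other ligands, 5 of 11 passed the filter. Bmp7, a ligand of the second BMP subgroup, was 262, 155, 114 and 196 at time zero and 657 and 544 in conditioned medium at 48 h. It rose at 48 h by 1.62 ± 0.36 in conditioned (adjusted p = 0.0054) and 1.38 ± 0.36 in unconditioned medium (0.046), and the latter was 0.88 (0.20) without the 3 arrays that stood apart. Bmp3, an atypical ligand that opposes other BMPs, was close to the floor at time zero, with at most 17.5, and was 48.1 and 78.2 in conditioned medium at 48 h (2.30 ± 0.71, adjusted p = 0.046). Its size depends on the floor, where 1 time zero array lay. With quantile normalization Bmp3 also passed in unconditioned medium at 48 h (2.25, adjusted p = 0.046). Without the 3 arrays that stood apart its change was 2.39 there, and 2.27 in conditioned medium at 24 h.

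None of 8 other receptors and co-receptors passed. Hjv, hemojuvelin, a BMP co-receptor found in striated muscle, had the smallest p between the media. Against time zero it passed in conditioned medium with quantile normalization, at 24 h (-1.28, adjusted p = 3.9e-04) and 48 h (-1.05, 9.2e-04). It was 2532 and 3626 in unconditioned and 1282 and 1783 in conditioned medium at 24 h, and 1682 and 3550 in unconditioned and 1743 and 1749 in conditioned medium at 48 h. The difference was -0.83 ± 0.30 (adjusted p = 0.36), and the only unconditioned array among the conditioned values was unconditioned 48 h replicate 2, 1 of the 3 arrays that stood apart. Without those 3 arrays it passed (-0.99, adjusted p = 0.0058), as it did with quantile normalization (-0.89, 0.0030).

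Among the Smads and their intracellular regulators, 1 of 10 passed. Smad7, the inhibitory Smad, was 1721, 979, 1164 and 1983 at time zero and 544 to 818 on the 8 medium arrays, with no overlap. It fell in conditioned medium, with changes of -1.43 ± 0.33 at 24 h (adjusted p = 0.043) and -1.51 ± 0.33 at 48 h (0.018). In unconditioned medium it was at -1.19 (adjusted p = 0.23) and -1.08 (0.098), and with quantile normalization at -1.27 (7.5e-04) and -1.12 (3.9e-04). Without the 3 arrays that stood apart these changes were -1.35 and -1.17.

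Of 10 other target transcription factors, 2 passed, in opposite directions. Atoh8, a helix-loop-helix factor, was 222, 136, 198 and 263 at time zero and 25.4 to 87.0 on the medium arrays. It fell after 24 h in unconditioned medium (-2.68 ± 0.42, adjusted p = 0.0060) and after 48 h in both media (-1.89, 0.019, and -1.69, 0.037). In conditioned medium at 24 h it was at -1.66 (0.067), and it passed there with quantile normalization (-1.54, adjusted p = 0.037). Without the 3 arrays that stood apart that change was -1.74. Runx2, the factor of bone formation, was 74.4, 43.3, 36.0 and 78.0 at time zero and 278 and 381 in conditioned medium at 48 h (2.41 ± 0.37, adjusted p = 3.3e-04), and it also rose in conditioned medium at 24 h and in unconditioned medium at 48 h. Of 8 E proteins and partners, Tcf4, a binding partner of the Id proteins, rose in conditioned medium at 24 h and at 48 h (1.10 ± 0.35 at 48 h, adjusted p = 0.039), and the 48 h call ended with quantile normalization (1.12, 0.057). The medians of the E protein list were -0.07 in conditioned and -0.15 in unconditioned medium at 48 h.

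**Figure D5:**
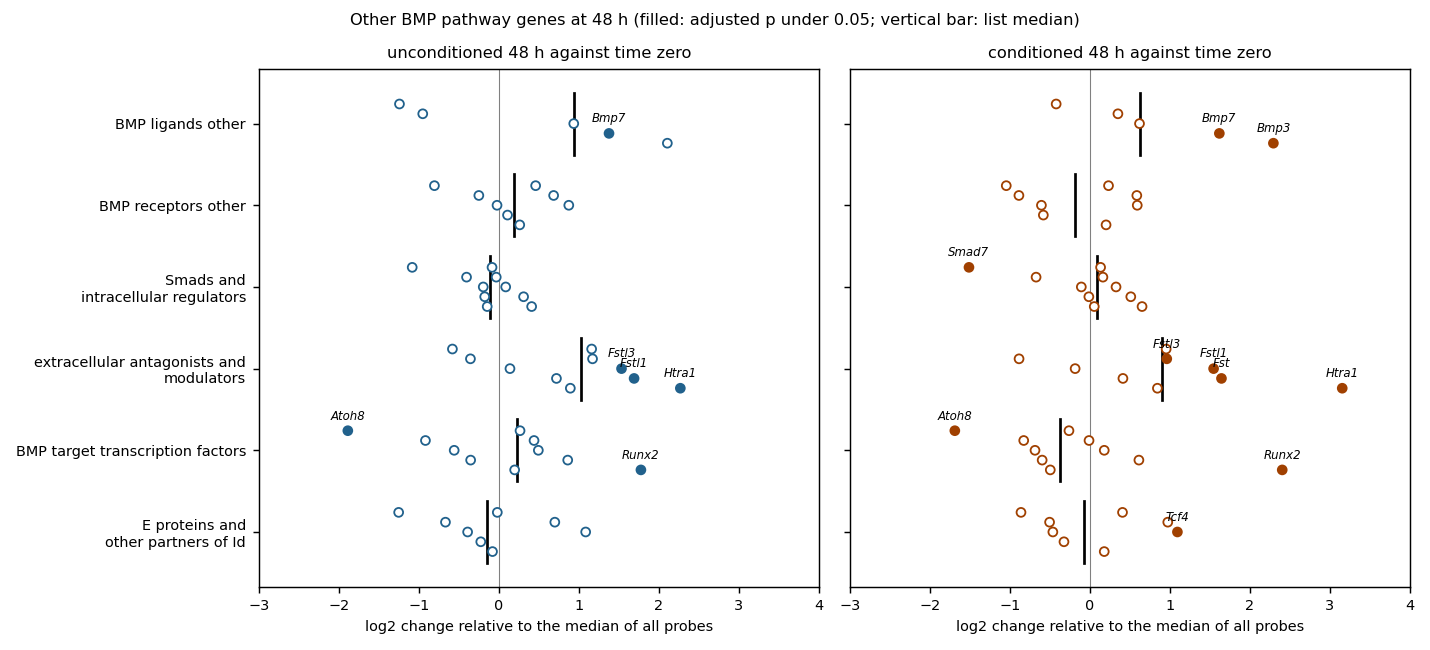
Log2 change from time zero at 48 h in unconditioned (left) and conditioned medium (right) for the 51 other pathway genes, in rows by role, with filled points where the adjusted p was under 0.05 and a bar at each list's median. In conditioned medium 8 filled points lie above 0, with Htra1 the highest at 3.16, and 2 below 0, Smad7 and Atoh8.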

How the data were processed

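Per the labels, total RNA from 18 samples was taken up in Trizol LS, labelled with biotin with the CodeLink iExpress kit and hybridised to 1-colour CodeLink arrays. The deposited values are linear intensity; the scanner, its software and any background correction or normalization are not given in the sources used here. Array medians that differed were scaled to the median of their table. Before log2 was taken, lower values were raised to a floor of 0.05 times that median, an intensity of 4.84 on the larger and 15.1 on the smaller design. The filter kept probes whose mean log2 value exceeded the 30th percentile. The floor lifts low values, so changes of dim probes are understated.

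All 5 groups of the larger design entered 1 model in limma (version 3.58.1, under R 4.3.3), with an intensity trend in eBayes and 7 residual and 10.4 prior degrees of freedom. P-values were adjusted by Benjamini-Hochberg over all 23694 filtered probes in each of 10 comparisons, and a call needed an adjusted p under 0.05. The 6 arrays of the smaller design were scaled in the same way and are given as values. Groups came from the labels, which carry no replicate numbers, and no 2 arrays held identical values. Probes were named from the platform annotation, in which 16753 probes of the larger design had 1 gene, 165 several and 16931 none (7290, 87 and 2529 on the smaller one), with symbols updated through gene identifiers. A gene is shown by its probe with the highest mean. Probe sequences were not used here.

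The members and lists were chosen with earlier results of these data known. All members are named. Of a pathway list, up to 4 genes called in any of the 10 comparisons are named by smallest p, or else the 1 with the smallest p between the media. For likeness, the 3 genes with the highest Pearson r over 12 arrays are given for at most 4 members. The settings tried besides were: quantile and 75th percentile scaling; the filter at the 50th percentile, or none; a floor at 0.2 of the median, or a pseudocount at 0.5 of it; array weights; a variance with no intensity trend; a gene's probes averaged; a fit of the compared groups alone; both designs in 1 fit with the design as block; the 3 arrays that stood apart left out; and each single array left out. Scripts were tested on simulated data. Promoter windows are from RefSeq (GRCr8), which held 8 of the 10 genes. Plots used matplotlib 3.10.9 (Python 3.11.15).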

Additional observations from a re-analysis of the deposited data

How the results depend on the processing

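Counts of members called in unconditioned medium at 24 h against time zero went from 3 to 1 with no filter or with no intensity trend, and ranged from 1 to 4 when single arrays were left out. In conditioned medium at 24 h the 2 calls became 4 with quantile normalization or 75th percentile scaling and 6 with array weights or without the 3 arrays that stood apart (1 to 4 with single arrays left out). In conditioned medium at 48 h the 2 calls became 4 with 75th percentile scaling, with the filter at the 50th percentile or without the 3 arrays, and 5 with array weights (2 to 4). In unconditioned medium at 48 h they ranged from 2 to 3. From 24 h to 48 h in conditioned medium 0 became 1, Bmp2, with array weights, with only the groups compared or without the 3 arrays. The causes were not tested. Between the media the count of 0 was kept in every setting run.

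Id1 and Id2 kept their sign against time zero in all settings. Signs turned for small changes: Id2 between the media over both times (-0.13 with a floor of 0.2, -0.10 with a pseudocount, -0.65 to 0.76 with single arrays left out), Id4 there (-0.43 to 0.079), Bmpr1a against time zero in unconditioned medium at 24 h (-0.041 to 0.59), in conditioned medium at 24 h (-0.034 with quantile normalization, -0.13 without the 3 arrays, -0.091 with both designs, -0.084 to 0.31) and at 48 h (-0.010 without the 3 arrays, -0.043 with both designs), and Bmp2 in unconditioned medium at 48 h (-0.075 to 0.46). With both designs Bmp2 was 1.73 between the media, and against time zero -0.25 in unconditioned medium at 24 h, -0.82 in the same medium at 48 h and 0.41 in conditioned medium at 48 h, which rests on 3 arrays of the smaller design near 0.

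Over all probes, the count called in conditioned medium at 48 h was 1532, and 948 with no filter, 3084 with quantile normalization and 4085 without the 3 arrays. No paired analysis was possible because the labels carry no replicate numbers. With 2 arrays in a medium group, leaving 1 out leaves a lone array, which is taken to vary like the other groups.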
